A study of Mus musculus with 5 samples.

Results

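Fbxo32, Fbxo25 and Fbxo30 are F-box genes that have been tied to striated muscle. They were chosen by gene symbol, as the rows of the deposited F-box sheet whose first symbol is Fbxo25, Fbxo30 or Fbxo32. Their levels did not enter this rule, but earlier results of these data were known when it was set. These are 3 of the 71 cullin and F-box genes that the sheets name, and they are read by 7 of 130 probe sets, namely 1 for Fbxo25, 4 for Fbxo30 and 2 for Fbxo32. A probe set is a group of short array probes against 1 transcript. Expression was measured on Affymetrix arrays in 5 mouse samples, 1 for each condition. Left ventricle tissue, isolated cardiomyocytes (CM), non-failing cardiac fibroblasts (CFb) and lung fibroblasts came from healthy wildtype C57Bl/6N mice. Failing CFb came from beta1-adrenergic transgenic mice with heart failure. For these the labels give the transgene in place of a strain, with its promoter not given in the sources used here. All mice were males aged 6 months, and each sample was a pool of 5 mice.

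An F-box protein binds Skp1 and through it the scaffold Cul1 and the RING protein Rbx1, and so brings its own substrates to an SCF ubiquitin ligase. Fbxo32 encodes Atrogin-1, also named MAFbx, a ubiquitin ligase known from skeletal muscle wasting and, in the mouse heart, as a brake on hypertrophy. Fbxo25 is its paralogue and has been linked to the turnover of cardiac transcription factors. Fbxo30, also named MUSA1, is a ligase of muscle loss after denervation in mice. The array served to find subunits expressed in CM, and levels were set against 6.0 and 6.5 on the log2 scale, the manufacturer's marks for relevant and strong expression.

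With 1 sample per condition no value has a replicate error, no difference between samples was tested, and the number of arrays limits the precision. A gene's level was taken as the mean log2 value of its probe sets, and their standard deviation (SD) is the spread within 1 array, not a replicate error. Over the 130 probe sets the median was 4.76 in left ventricle and between 6.22 and 6.67 in the other samples, and the lowest value was -3.32 in left ventricle but 4.82 in non-failing CFb. The low ends of these values thus differed between samples, and the cause was not tested. Each difference below was also computed after rescaling the samples, to equal medians or by quantile normalization. Both used only these 130 probe sets of selected genes, not the whole array. All 130 left ventricle values had at most 1 decimal as intensities, whereas 1 of 130 did in failing CFb and 0 in each other sample, and the part of this difference in the left ventricle values, Fbxo30 included, was not tested. None of 26 marker genes for cardiomyocytes, fibroblasts and other cell types was among the genes that the sheets name, so the labelled cell types were not checked here. In such bulk samples fewer cells of a type and less RNA per cell cannot be told apart. All 35 values of the members were equal in the log2 sheets and in the deposited intensity table, within 1 percent or 0.01 intensity units.

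All 3 genes and all 7 probe sets were over 6.5 in CM. For comparison, 43.7 percent of the 71 genes and 47.7 percent of the 130 probe sets were over 6.5 in that sample. All 3 genes were targets of the study's siRNA library, which was chosen by array level in CM. Their passing in CM is therefore no independent result. The paper lists Fbxo25 in its second group, under 6.5 in CM, whereas the deposited level was 6.92. No other sample had all 7 probe sets over 6.5. There were 4 in left ventricle, where 32.3 percent of all probe sets passed, 5 in non-failing CFb (53.1 percent), 5 in failing CFb (50.8 percent) and 5 in lung fibroblasts (47.7 percent). At 6.0 the members' counts were the same in every sample, while 35.4 percent of all probe sets passed in left ventricle, 54.6 percent in CM, 72.3 percent in non-failing CFb, 66.9 percent in failing CFb and 55.4 percent in lung fibroblasts. The 7 probe sets had a median of 8.67 in CM, against 6.22 for all 130. In non-failing CFb the medians were 6.66 and 6.67, so that there the members stood near the middle of all probe sets.

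**Figure D1:**
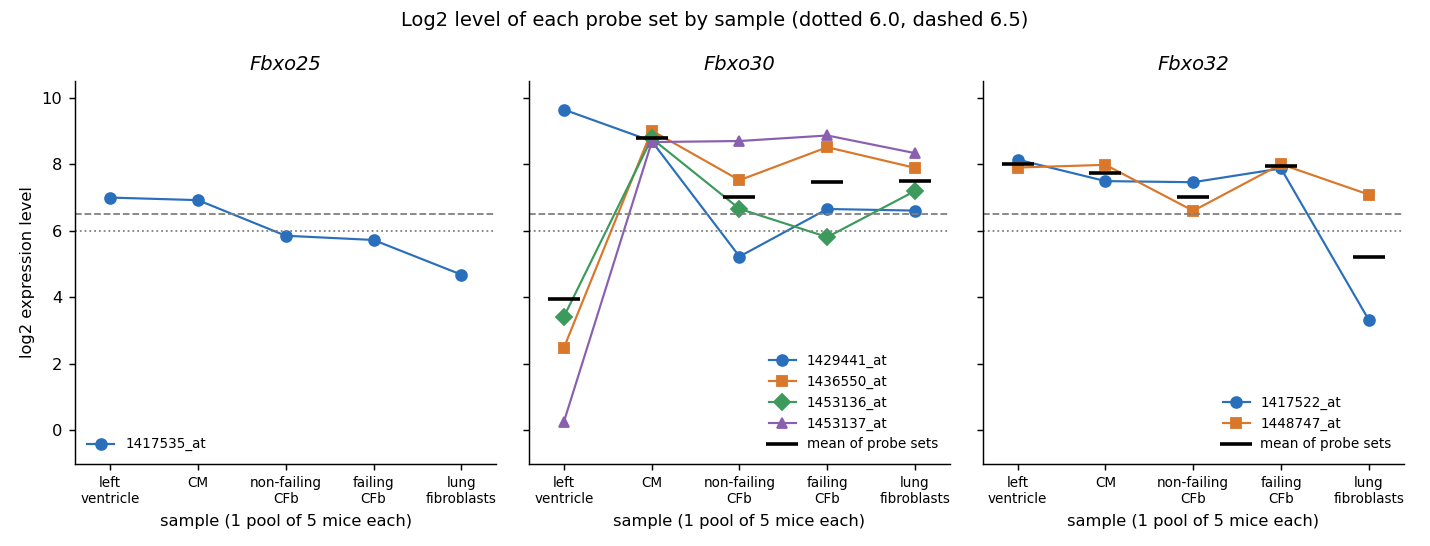
The log2 level of each of the 7 probe sets (coloured markers, joined by lines only to show which points belong together) is plotted for the 5 samples, with the mean of a gene's probe sets as a black bar. In CM every point lies above the dashed line at 6.5, whereas 3 of the 4 Fbxo30 probe sets in left ventricle and 1 of the 2 Fbxo32 probe sets in lung fibroblasts lie below the dotted line at 6.0.

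For Fbxo32, probe set 1417522_at read 8.14 in left ventricle and 7.49 in CM, and it read 7.46 in non-failing CFb, 7.87 in failing CFb and 3.32 in lung fibroblasts. Probe set 1448747_at read 7.90, 7.98, 6.60, 8.0 and 7.09 in the same order of samples. Both were above 6.5 in every heart sample, and they parted in lung fibroblasts, where the deposited intensities were 9.99 and 136. The gene level was 8.02 in left ventricle with an SD of 0.17, 7.94 in failing CFb with an SD of 0.091, 7.74 in CM with an SD of 0.35, 7.03 in non-failing CFb with an SD of 0.61 and 5.20 in lung fibroblasts with an SD of 2.66. No neighbours in this order differed by more than the SD of the difference over the probe sets. In left ventricle the SD of Fbxo32 was the smallest among the 32 genes with several probe sets, whose median SD was 3.0, and in failing CFb it ranked 2 of 32.

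Fbxo25 was read by probe set 1417535_at alone, so that no spread can be given. The left ventricle level was 7.0 and the CM level 6.92, and those of fibroblasts were 5.85 in non-failing CFb, 5.72 in failing CFb and 4.68 in lung fibroblasts. The intensities were 127.7, 121, 57.7, 52.8 and 25.7 in that order. Left ventricle and CM lay above 6.5, and the 3 fibroblast samples lay below 6.0. Its levels spanned 2.32 from the highest to the lowest sample, against a median span of 3.74 for the 71 genes, and those of Fbxo32 spanned 2.81.

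Fbxo30 was read most evenly in CM and least evenly in left ventricle. Its 4 probe sets stood at 8.69, 9.01, 8.78 and 8.67 in CM, for 1429441_at, 1436550_at, 1453136_at and 1453137_at in this order. In left ventricle the same probe sets read 9.64, 2.49, 3.42 and 0.26. Probe set 1429441_at was thus higher in left ventricle than in any other sample, while the other 3 had their lowest values there, at intensities of 5.6, 10.7 and 1.2. In non-failing CFb the values were 5.22, 7.52, 6.66 and 8.70, in failing CFb 6.65, 8.51, 5.81 and 8.86, and in lung fibroblasts 6.61, 7.89, 7.19 and 8.33. Across the fibroblast samples 1453137_at and 1436550_at were the highest, and 1429441_at or 1453136_at the lowest.

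The gene level of Fbxo30 was 8.79 in CM with an SD of 0.16, 7.51 in lung fibroblasts with an SD of 0.76, 7.46 in failing CFb with an SD of 1.47, 7.02 in non-failing CFb with an SD of 1.46 and 3.95 in left ventricle with an SD of 4.02. In this order the step from CM to lung fibroblasts, 1.28 with an SD of 0.75 over the 4 probe sets, was larger than its spread, and the other 3 steps were not. By SD, Fbxo30 ranked 4 from the smallest of 32 genes in CM, 30 in non-failing CFb and 23 in left ventricle, where the median SD of these genes was 3.0, so that probe sets of 1 gene often lay far apart in left ventricle. Its low mean in left ventricle rests on the 3 probe sets named above.

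The study used rat siRNA pools to deplete these genes in neonatal rat cardiomyocytes, with Fbxo32 as the control target, and chose library targets by their array level in CM. The pools are shown because they are the reagents that the screen used against these 3 genes. No effect of them was measured on the arrays, and their match to the mouse transcripts was not examined. Each is the printed strand, 5′ to 3′, in lower case.
Fbxo25 siRNA 1: gcugaacgccacacguaga
Fbxo25 siRNA 2: gacuugagcucgacccuuu
Fbxo25 siRNA 3: gggaaaucaguguuaguug
Fbxo25 siRNA 4: uggauaaaaucgugcaaaa
Fbxo30 siRNA 1: cagccuaagcagcguucaa
Fbxo30 siRNA 2: agacaaagcagucgauacu
Fbxo30 siRNA 3: aagaaaagguguggcgauu
Fbxo30 siRNA 4: ugaaauuguuggaacguga
Fbxo32 siRNA 1: ggcagauccgcaagcgauu
Fbxo32 siRNA 2: acauguggguguaucgaau
Fbxo32 siRNA 3: cauaagacucauacgggaa
Fbxo32 siRNA 4: acuuuaagcuugugcgaug
Every oligo has 19 bases. The longest run shared by an oligo of Fbxo25 and one of its paralogue Fbxo32 is 5 bases, as it is for Fbxo25 and Fbxo30, and it is 6 bases for Fbxo30 and Fbxo32.

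For Fbxo25, which the array read with 1 probe set, the study also designed a primer pair against the mouse transcript, which it used to follow this mRNA by PCR in pressure-overloaded hearts. Those values are not array data and are not given here.
Fbxo25 forward primer: gtggggaagtcagtgctagt
Fbxo25 reverse primer: tgacaatgtcccagccatct

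Differences were described for 5 pairs of samples. A gene was counted where its levels differed at least 2-fold, which is 1 on the log2 scale, and reached 6.0 in 1 of the 2 samples. Non-failing CFb serve in 3 of the pairs and CM in 3, so the pairs are not independent of each other.

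CM against lung fibroblasts was the pair in which all 3 genes were counted. Fbxo32 was higher in CM by 2.53, or 5.78-fold, Fbxo25 by 2.24, or 4.72-fold, and Fbxo30 by 1.28, or 2.43-fold. Over all 71 genes 16.9 percent were counted as higher in CM and 18.3 percent as lower. All 7 probe sets were higher in CM, and 5 of them at least 2-fold, against 52.3 percent and 25.4 percent of the 130. Fbxo30 and Fbxo32 were thus among the 25.0 percent of the 32 genes with several probe sets that had them all higher in CM. The 4 probe sets of Fbxo30 differed by 2.09, 1.12, 1.58 and 0.33, in the order used above, and thus in 1 direction. The size of the Fbxo32 difference came from 1417522_at, at 4.17, whereas 1448747_at differed by 0.89. Taking the highest probe set in each sample on its own, only Fbxo25 was counted. For Fbxo32 this was 1448747_at in both samples, at 0.89. For Fbxo30 it set 1436550_at in CM against 1453137_at in lung fibroblasts, at 0.68, whereas 1436550_at alone differed by 1.12. Fbxo30 also fell short with quantile normalization, at 0.88.

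CM against non-failing CFb asks which genes were higher in the muscle cells of the heart than in its fibroblasts. Fbxo30 was higher in CM by 1.76, or 3.39-fold, with an SD of 1.45 over its probe sets. Fbxo25 was higher by 1.07, or 2.10-fold. Fbxo32 differed by 0.71, or 1.63-fold, and was not counted. Of all 71 genes 21.1 percent were counted as higher in CM and 36.6 percent as lower, a split of 15 and 26 that became 20 and 19 once the samples were set to equal medians and 18 and 20 after quantile normalization. The median difference was 1.07 for the 3 genes and -0.51 for the 71. Of the 7 probe sets 6 were higher in CM, by any amount, against 42.3 percent of the 130. The exception was 1453137_at of Fbxo30, at -0.03, while 1429441_at of the same gene differed by 3.47. The probe sets of Fbxo32 differed by 0.03 and 1.38. With equal medians Fbxo32 was also counted, at 1.15.

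Failing against non-failing CFb asks how fibroblasts from hearts with failure differ from those of healthy hearts, although transgene, strain and heart failure cannot be told apart in this pair. No member was counted, while 19.7 percent of the 71 genes were counted as higher and 22.5 percent as lower. Fbxo32 came closest, with a difference of 0.91, or 1.88-fold. Its probe sets were both higher in failing CFb, by 0.41 and 1.40. Of the 7 probe sets 5 were higher there, against 46.2 percent of the 130. Fbxo30 differed by 0.43 with an SD of 1.0, and its probe sets ranged from -0.85 for 1453136_at to 1.43 for 1429441_at. Fbxo25 differed by -0.13 as deposited, but by 0.03 with equal medians and 0.72 with quantile normalization, so that its direction depends on the scaling. Fbxo32 passed 2-fold with equal medians, at 1.07. With quantile normalization Fbxo32, at 1.35, and Fbxo30, at 1.34, both passed.

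Lung fibroblasts against non-failing CFb compares fibroblasts of different organs. Fbxo32 was counted as lower in lung fibroblasts, with a difference of -1.82, but its probe sets pointed in opposite directions, at -4.14 for 1417522_at and 0.49 for 1448747_at. Among all genes 42.3 percent were counted as lower and 14.1 percent as higher, a split of 30 and 10 that became 20 and 17 under equal medians and 21 and 20 under quantile normalization. Of the 7 probe sets 4 were higher in lung fibroblasts, against 44.6 percent of the 130. Fbxo25 differed by -1.17 and was not counted, since both of its levels were under 6.0, and its difference was 0.20 with quantile normalization. Fbxo30 differed by 0.48, with 3 of 4 probe sets higher in lung fibroblasts. Quantile normalization brought Fbxo30 to 1.28, past 2-fold.

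Left ventricle against CM sets whole tissue beside its isolated muscle cells. Fbxo25 differed by 0.08 and Fbxo32 by 0.28, both far under 2-fold as deposited. Fbxo30 was counted as lower in left ventricle, with a difference of -4.83 and an SD of 4.05. Its probe sets split, at 0.95 for 1429441_at and at -6.53, -5.36 and -8.40 for the other 3. Of the 71 genes 31.0 percent were counted as lower in left ventricle and 14.1 percent as higher, or 22 and 10, which became 16 and 27 under equal medians and 14 and 21 under quantile normalization. Of the 7 probe sets 3 were higher in left ventricle, against 36.9 percent of the 130. Equal medians raised Fbxo25 to 1.54 and Fbxo32 to 1.75, both past 2-fold, and left Fbxo30 at -3.37. With quantile normalization the differences of Fbxo25 and Fbxo32 were 0.79 and 0.76, and that of Fbxo30 was -2.62.

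**Figure D2:**
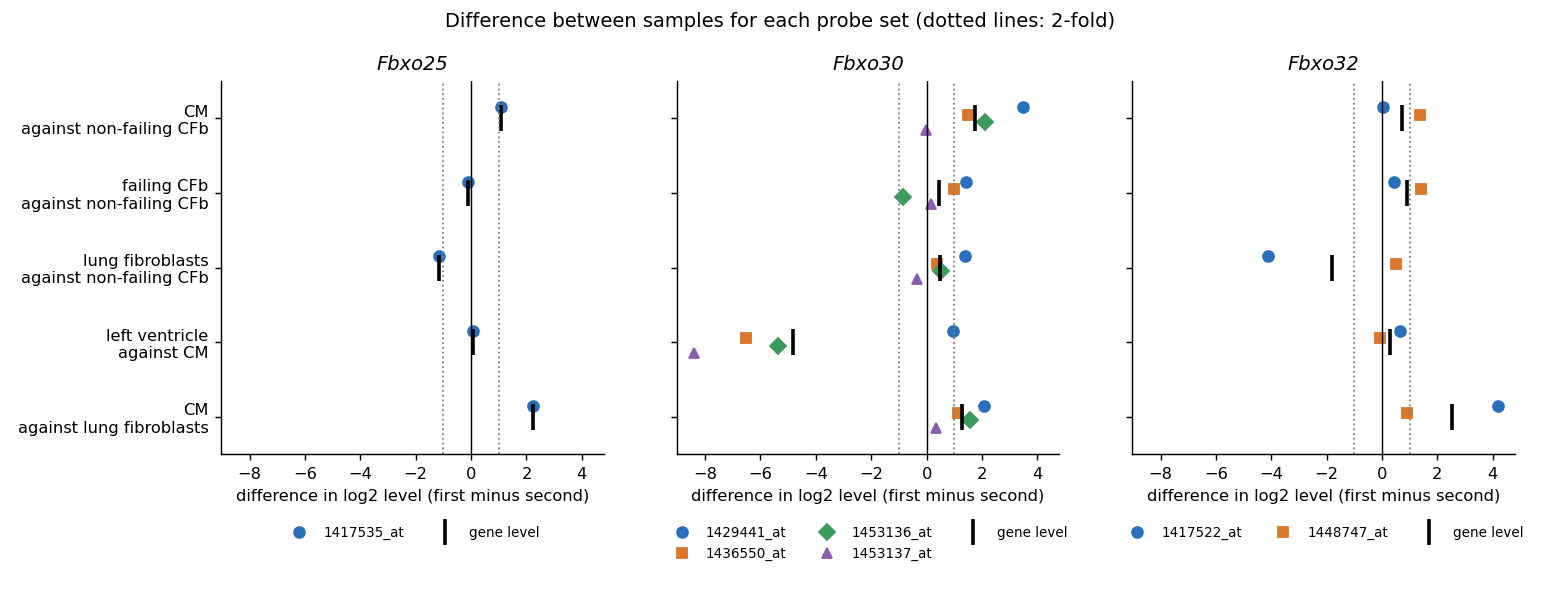
For each of the 5 pairs the difference in log2 level, first sample minus second, is plotted for every probe set (markers) and for the gene level (black bar), with dotted lines at 2-fold. All 7 probe sets lie to the right of 0 for CM against lung fibroblasts, and the probe sets of Fbxo30 in left ventricle and of Fbxo32 in lung fibroblasts lie on both sides of 0.

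**Figure D3:**
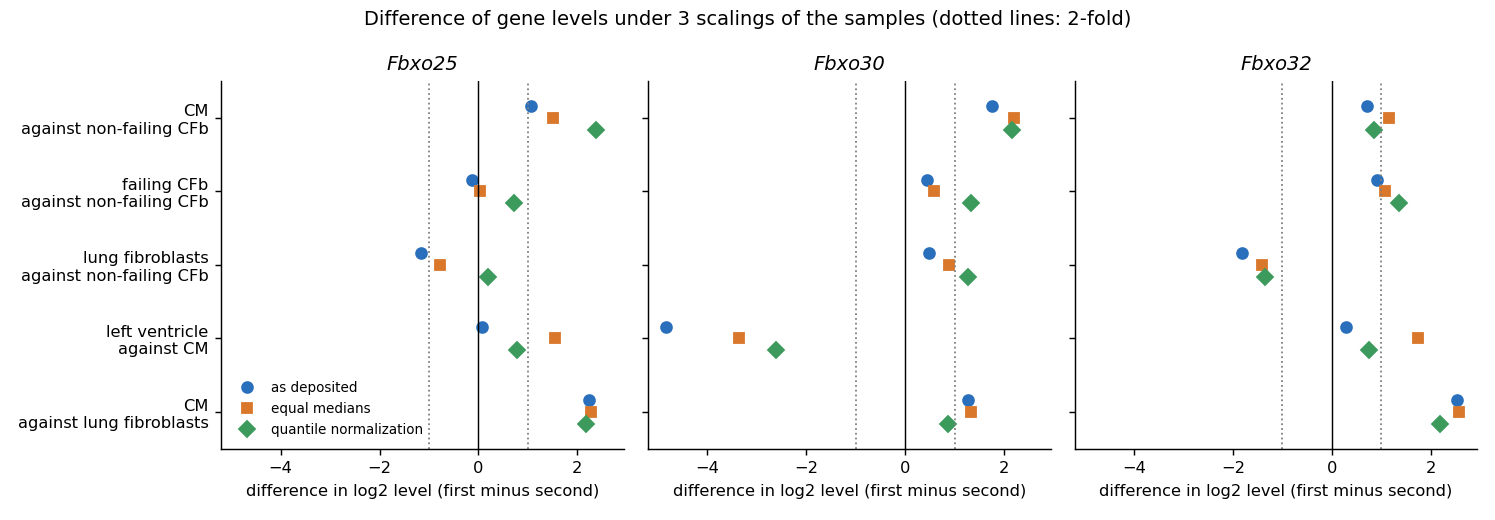
The difference in gene level, first sample minus second, is plotted for the values as deposited, with equal medians of the samples and with quantile normalization. Each gene is on the same side of 0 under all 3 in both pairs that set CM against fibroblasts, whereas Fbxo25 changes side for failing and for lung fibroblasts against non-failing CFb.

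The rank of a probe set among the 130 of its own sample does not depend on any scaling that keeps their order, and is given here to follow a probe set from sample to sample, not to compare genes. Fbxo25 ranked 36 from the top in left ventricle and 54 in CM, but 104 in non-failing CFb, 91 in failing CFb and 100 in lung fibroblasts. Its rank thus separated left ventricle and CM from the fibroblast samples, as its level did. For Fbxo32, 1448747_at ranked 22 in left ventricle and 32 in CM, then 67 in non-failing CFb, 23 in failing CFb and 43 in lung fibroblasts. The other, 1417522_at, ranked 20, 40, 40, 29 and 113. Both were therefore nearer the top in failing than in non-failing CFb.

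The 4 probe sets of Fbxo30 ranked 17 to 20 in CM, next to each other. In left ventricle they ranked 6, 94, 84.5 and 112, the third of which is a tie, and in non-failing CFb 128, 37, 66 and 7. Probe set 1429441_at, 6 from the top in left ventricle, was thus near the bottom in non-failing CFb, where 1453137_at ranked 7.

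**Figure D4:**
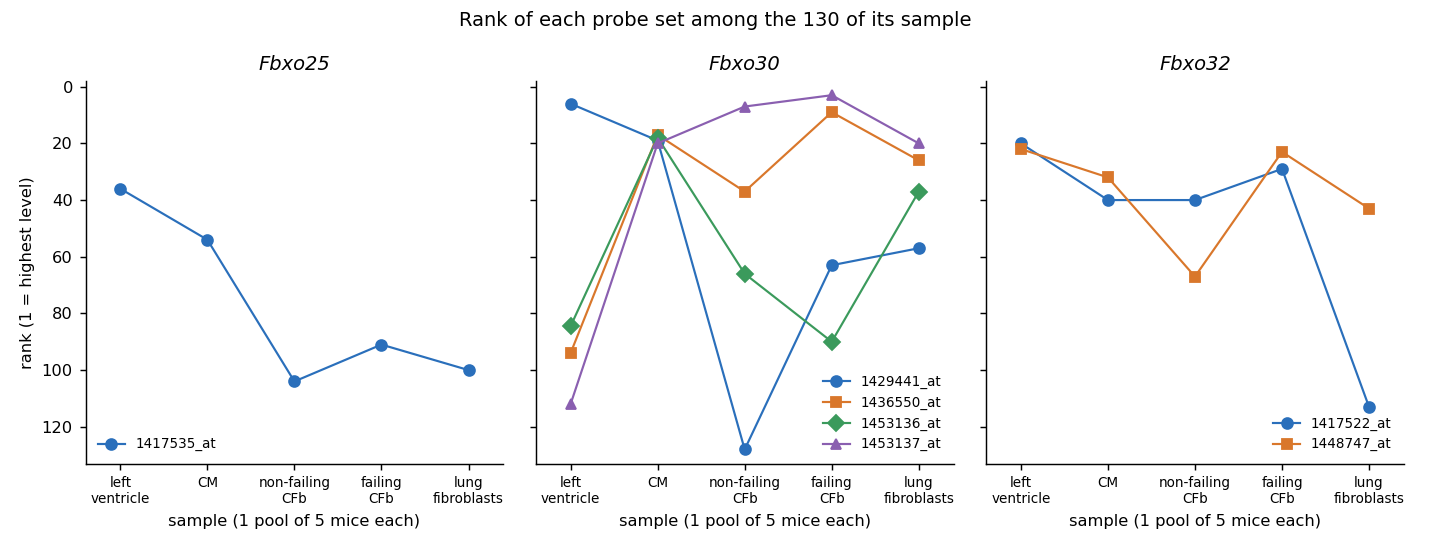
The rank of each member probe set among the 130 of its sample is plotted with rank 1 at the top. The Fbxo30 probe sets meet at ranks 17 to 20 in CM and spread from 6 to 112 in left ventricle, and Fbxo25 falls from 36 and 54 in left ventricle and CM to between 91 and 104 in the fibroblast samples.

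Likeness between genes was measured as the root mean square difference of their level patterns over the 5 samples, after each pattern was centred on its own mean. It is a description over 5 samples that share each array. Fbxo25 was closest to Fbxo4, an F-box gene linked to cyclin D1 turnover, at 0.41, then to its paralogue Fbxo32 at 0.57 and to Fbxo8, which carries a Sec7 domain, at 0.63. The median over the 70 other genes was 1.84. Fbxo32 was closest to Fbxo8 at 0.31, Fbxo4 at 0.37 and Fbxo25 at 0.57, again with a median of 1.84. As deposited, the paralogues were each among the 3 nearest of the other, but with quantile normalization neither was. Both gene levels were highest in left ventricle and lowest in lung fibroblasts. The lead of left ventricle was small, at 0.08 over CM for Fbxo25 and 0.08 over failing CFb for Fbxo32. Probe set 1448747_at of Fbxo32 was instead highest in failing CFb and lowest in non-failing CFb. The paralogues parted in failing CFb, where Fbxo32 was 0.91 above and Fbxo25 0.13 below the non-failing sample as deposited. After rescaling Fbxo25 was also above the non-failing sample, by 0.03 with equal medians and 0.72 with quantile normalization. Fbxo25 has 1 probe set and so does Fbxo8, which leaves these distances without a spread.

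By gene level, Fbxo30 did not share this pattern: Fbxo25 and Fbxo32 stood at 2.05 and 2.14 from it, where the median over the 70 other genes was 1.88. It was closest to Cul5, the scaffold of SOCS-box ligases, at 0.46, Fbxo21 at 0.53 and Fbxl20, an F-box gene known from synapses, at 0.56. All 4 had their lowest gene level in left ventricle and their highest in CM. The left ventricle level of Fbxo30, 3.95, had an SD of 4.02 over its probe sets. Its probe set 1429441_at was instead highest in left ventricle, and 1453137_at was highest in failing CFb. Each sample was also left out in turn, a step chosen after seeing the data. None of the 3 genes nearest to Fbxo30 remained without left ventricle or without CM, and 2 remained when any 1 of the fibroblast samples was left out. For Fbxo25, 1 of 3 remained without left ventricle, 1 without non-failing CFb and 0 without lung fibroblasts, and in each of these cases Fbxo32 was no longer among its 3 nearest. For Fbxo32 at least 2 of 3 remained in every case, but Fbxo25 was lost without left ventricle and without CM. With quantile normalization 1 of 3 remained for Fbxo25, 0 for Fbxo30 and 1 for Fbxo32, so the nearest genes depend on the scaling and on single samples.

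**Figure D5:**
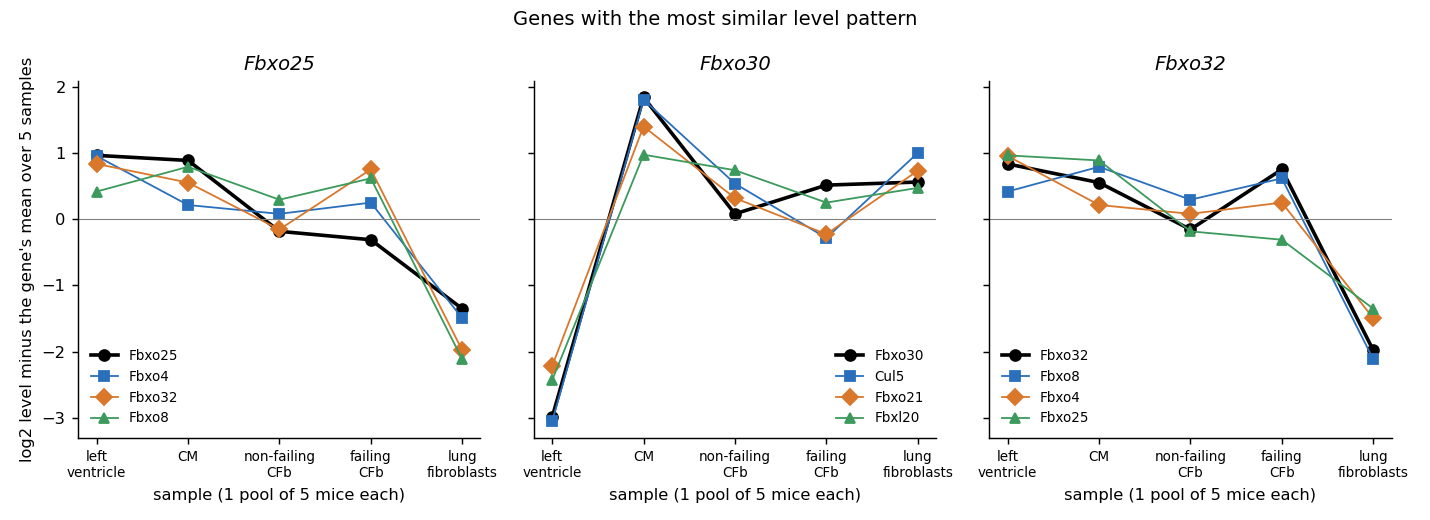
Each panel plots the log2 level minus the gene's own mean over the 5 samples for a member (black) and the 3 genes most like it (coloured). Fbxo25 and Fbxo32 fall to their lowest point in lung fibroblasts, and Fbxo30 and its 3 nearest genes have theirs in left ventricle.

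Of 7 other F-box ligases of muscle and SCF subunits on a list, 3 were among the 71 genes that the sheets name. Fbxo21, a muscle atrophy ligase also named SMART, had levels of 3.22 in left ventricle and 6.84 in CM, and of 5.76 in non-failing CFb, 5.22 in failing CFb and 6.18 in lung fibroblasts, from 2 probe sets. Fbxo31, another atrophy-related F-box gene of mouse muscle, stood at 5.58, 5.68, 6.74, 4.76 and 4.5 in the same order, from 1 probe set. Cul1, the scaffold that the F-box proteins share, stood at 0, 9.38, 6.31, 5.63 and 8.73, also from 1 probe set. Like Fbxo30, Fbxo21 and Cul1 were lowest in left ventricle and highest in CM, and both were counted as lower in left ventricle than in CM, with differences of -3.62 and -9.38. This order was shared by 12 of the 71 genes, or 16.9 percent, and 31.0 percent were counted as lower in left ventricle than in CM. The left ventricle level of Cul1 is an intensity of 1.

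Among these 3, Fbxo21 and Cul1 were counted as higher in CM than in non-failing CFb, by 1.08 and 3.07, and Fbxo31 as lower, with a difference of -1.05. In failing against non-failing CFb, 1 of the 3 was counted, Fbxo31, with a difference of -1.98. No gene of the list was counted in CM against lung fibroblasts, where all 3 members were, but a difference between the list and the members was not tested. Fbxo31 was past 2-fold there, at 1.19, and was left out only because both of its levels were under 6.0. Over all 71 genes 16.9 percent were counted as higher in CM and 18.3 percent as lower. Of 7 muscle ubiquitin ligases without an F-box, such as Trim63, none was among the named genes.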

How the data were processed

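The authors deposited log2 expression levels per probe set in 2 sheets, for cullins and F-box genes, with 130 probe sets of 71 genes, and a whole-array table of linear intensity. The paper and series name the Affymetrix Mouse Expression Set 430 and the series names the Exon Array Computational Tool. Per the labels a whole-transcript labelling kit was used, which is not the usual one for that array. Background correction, probe summary and between-sample scaling were not given in the sources used here. In each sheet, 4 columns of the authors' own differences were not used. A gene was named by the first symbol of its row, all 3 members were found in RefSeq's GRCm38.p6 gene table, and no coordinates were used. Levels were means over probe sets. Differences were subtractions of levels between 2 samples, with no test since each condition had 1 sample.

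Genes named in the text were the members, for each the 3 genes with the most similar pattern, and the genes of the muscle list that the sheets name. Genes nearest after leaving out a sample are not reported here by name, and those alternatives were chosen after seeing the data. The members, lists and rules were chosen with earlier results of these data known. Alternatives were the median or each sample's highest probe set, each probe set alone, no _s_at or _x_at probe sets and the intensity table. Others were equal medians, quantile normalization, 1.5-fold and no level rule. Oligo sequences were copied from the study's supplement. Calculations used Python 3.11.15, pandas 2.3.3, NumPy 2.4.6 and matplotlib 3.10.9 and were tested on simulated data.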

Additional observations from a re-analysis of the deposited data

How the results depend on the processing

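No paired analysis was possible because no condition had more than 1 sample. Several alternatives could not move the members' values. No member has an _s_at or _x_at probe set, the intensity table holds the same member values, Fbxo25 has 1 probe set, and the median of the 2 probe sets of Fbxo32 is their mean. The median of the 4 probe sets of Fbxo30 was therefore the only informative one among these, and it moved none of its differences beyond their spread. Equal medians shifted left ventricle by 1.33, CM by -0.14, non-failing CFb by -0.58, failing CFb by -0.42 and lung fibroblasts by -0.18. In CM this gave Fbxo25 a level of 6.78, and quantile normalization gave 6.64 for Fbxo25 and 8.40 for Fbxo30. The highest probe set of Fbxo30 in CM, 1436550_at, gave 9.01 there. The highest probe set was picked in each sample on its own, so a difference by this setting can set different probe sets against each other. With the highest probe set in place of the mean, 1 member was counted for CM against non-failing CFb (2 by the mean), 0 for lung fibroblasts against non-failing CFb (1 by the mean), 0 for left ventricle against CM (1 by the mean) and 1 for CM against lung fibroblasts (3 by the mean). For failing against non-failing CFb the count rose from 0 to 1 with equal medians and at 1.5-fold, and to 2 with quantile normalization. For lung fibroblasts against non-failing CFb it rose from 1 to 2 with quantile normalization and without the level rule, and for left ventricle against CM from 1 to 3 with equal medians, of which 2 were higher. Some counted differences turned with 1 probe set alone. In CM against non-failing CFb, Fbxo30 stood at -0.031 by 1453137_at alone. In lung fibroblasts against non-failing CFb, Fbxo32 stood at 0.49 by 1448747_at alone. In left ventricle against CM, Fbxo30 stood at 0.95 by 1429441_at alone. The highest probe set of each sample gave 0.63 for that pair, but this set 1429441_at in left ventricle against 1436550_at in CM. By itself 1436550_at differed by -6.53. The cause was not tested. Low levels are read without knowing how far they stood above background, since the files hold no such value.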
